A study of Mus musculus with 40 samples.

Results

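The 47 genes described here encode proteins that build ribosomes in the nucleolus. They were taken by gene symbol from a table of 21950 mouse genes and were followed in all 24 RNA-seq libraries of the series. By role, 5 of them act in or beside transcription by RNA polymerase I, 4 are nucleolar scaffold or chaperone proteins, 3 belong to box C/D and 3 to box H/ACA small nucleolar ribonucleoproteins (snoRNPs), 13 work on the small ribosomal subunit and 19 on the large one. All 47 passed the filter on low values, with a lowest library value of 18.4 normalized counts.

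In the nucleolus, RNA polymerase I copies the ribosomal DNA into a long precursor, which snoRNPs modify and which nucleases, helicases and assembly factors cut and fold into the small and the large ribosomal subunit. The pathway sets how many new ribosomes a cell can make and is a well-known target of the transcription factor Myc. Resting T cells are small and make few ribosomes, and stimulation through the antigen receptor and CD28 is known to enlarge the nucleolus before the cells divide.

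The libraries fall into 8 groups of 3, all from mice on a C57BL/6 background that carry a fluorescent Foxp3 reporter, by which Foxp3-positive and Foxp3-negative CD4 T cells were sorted. Conventional CD4 T cells (Tconvs) and thymus-derived regulatory T cells (tTregs, called nTregs in the labels) came from the spleens of 2- to 4-month-old mice and were used at rest or after activation. Induced regulatory T cells (iTregs) were made from naive CD4 T cells, sorted from 6-week-old mice as Foxp3-negative cells high in CD62L and low in CD44, with 2 ng/ml TGF-β, anti-CD3, anti-CD28 and IL-2 for 4 days. They were then sorted for Foxp3, for which the study methods give a GFP or an RFP reporter. After a rest of 1 day they were taken as they were or restimulated with anti-CD3 and anti-CD28. Restimulation was also done with CM-4620, a blocker of the ORAI calcium channel (ORAIinh in the labels), or with cyclosporin A (CsA), an inhibitor of the phosphatase calcineurin. The study asked how iTregs respond to a second stimulation in comparison with Tconvs and tTregs, and whether calcium entry and its target NFAT carry that response. The labels do not say that the 3 libraries of a group came from separate animals, so that p-values measure the spread between these libraries, which may be technical. How long the cells of these libraries were activated or restimulated is not given in the sources used here.

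Values are normalized counts, which are gene counts divided by 1 size factor per library, and the libraries held 5256800 to 15685234 reads on genes. Such values are relative to the rest of the library, so that a change in the total RNA of a cell cannot be seen in them. Differences are on the log2(normalized count + 1) scale, tested with limma over all genes of a fit, and a gene was called higher or lower where the Benjamini-Hochberg adjusted p was below 0.05 and the log2 fold change was above 0.5 or below -0.5. The libraries are of bulk RNA, in which fewer cells of a type and less RNA per cell cannot be told apart. Foxp3 lay between 6815 and 7951 normalized counts in tTregs, between 655 and 1338 in the iTreg groups and at most 35.9 in Tconvs, in the order that the labels give the cells. T cell genes were present throughout, with Cd3e, Cd3d and Cd4 summing to 10562 to 23678. Among markers of other cells, the 3 NK genes summed to 419.5 to 426 in resting Tconvs, nearly all of it Klrd1, to at most 23.3 in activated Tconvs and to 0 in tTregs, which allows up to 5.45 normalized counts per gene and library at a floor of 3 reads. In the iTreg groups they summed to 24.2 to 124, all of it Klrd1. The CD8 genes Cd8a and Cd8b1 summed to 99.0 to 236, highest in resting Tconvs. The B cell gene Cd79b was at 85.4 to 126 in tTregs and at most 36.9 elsewhere, while Ms4a1 was at 0 in every library. The 5 myeloid genes summed to at most 25.3, the 4 dendritic cell genes to at most 110.3 and the 4 globin genes to at most 26.2. The part of other cells in the results below was not tested.

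**Figure D1:**
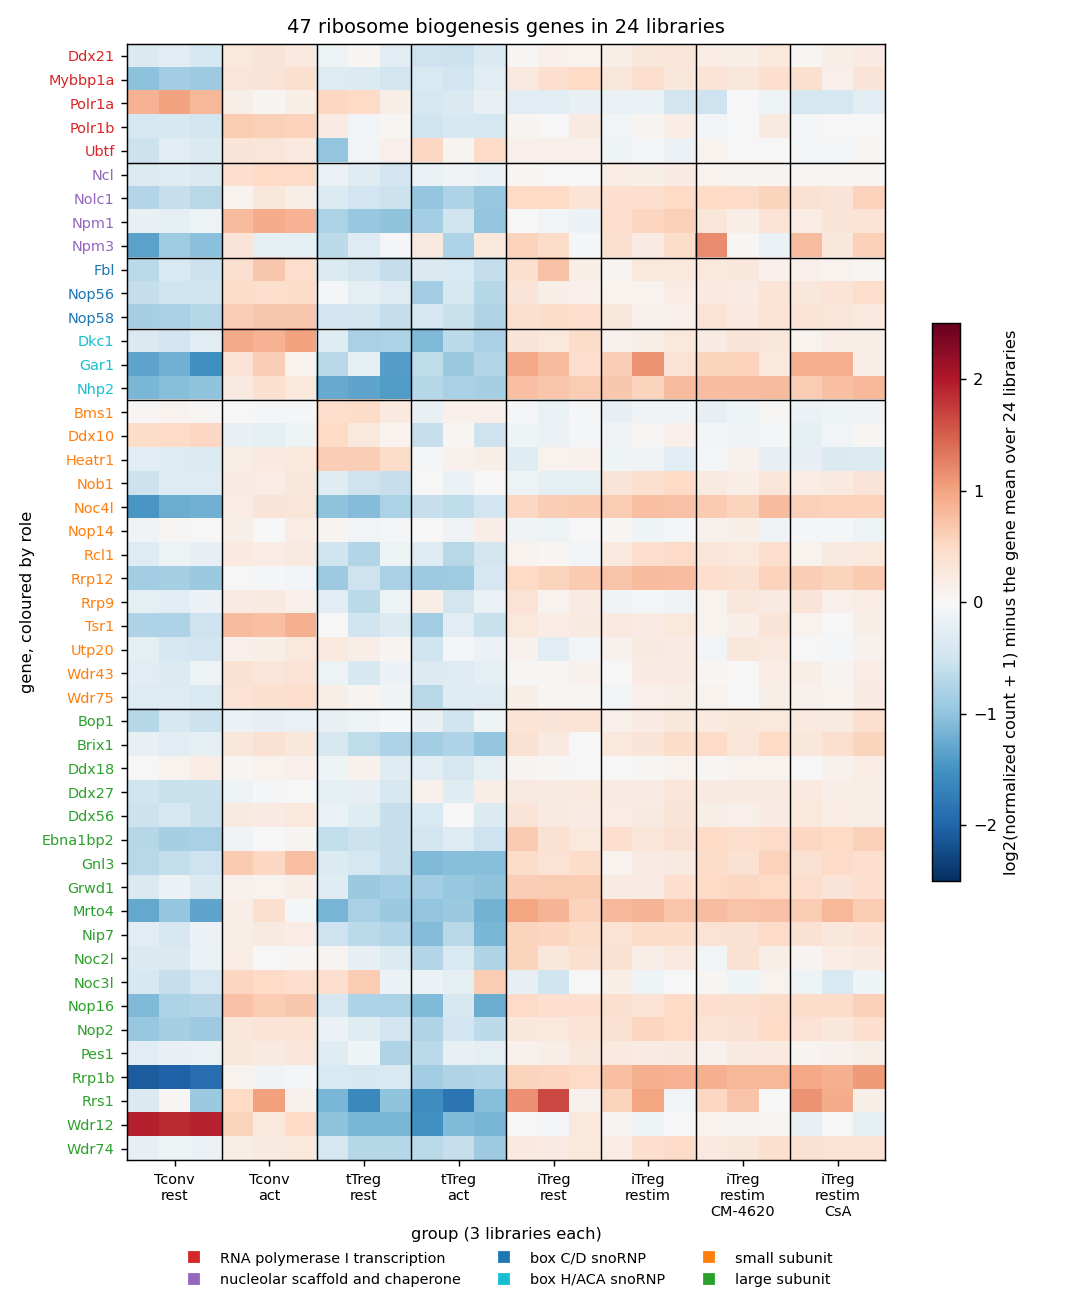
Each row is 1 of the 47 genes, coloured by role, and each column 1 of the 24 libraries, 3 to a group. Colour gives log2(normalized count + 1) minus the gene's mean over the libraries, from blue (lower) to red (higher). Resting Tconvs and both tTreg groups are mostly blue and activated Tconvs and iTregs mostly red, while Wdr12, Polr1a and Ddx10 are reddest in resting Tconvs.

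Several of these genes carry a second nucleolar product. In the GENCODE annotation of GRCm38, 7 of the 47 genes (14.9%) hold snoRNA genes on the same strand within their bounds, against 1.86% of 11387 protein-coding genes tested. They are Nop56 with 5 snoRNAs, Nop58 with 4, Ncl, Wdr43 and Gnl3 with 3 each, Tsr1 with 2 and Dkc1 with 1. The libraries were made by a modified SMART-seq2 protocol, which does not mark strand, so that for Tsr1, with 32.3% of its exon bases shared with Srr on the other strand, and for Noc2l, with 20.9% shared with Samd11, reads of the neighbour cannot be told apart. Those neighbours were low, with group means between 90.7 and 112 normalized counts for Srr and between 9.87 and 52.1 for Samd11. Nop56 shared 8.12% of its exon bases with other genes, among them Idh3b on the other strand. Idh3b was not low, with group means between 1440 and 2429, and was at 1807 ± 44.6 in resting and 2329 ± 59.9 in activated Tconvs (SD, n = 3). Npm1 has processed pseudogenes, between which the counting program splits reads that match both.

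Promoter sequence was at hand for 42 of the 47 genes, as windows of 250 bases before to 50 bases after each annotated start (RefSeq, GRCm38.p6). The E-box CACGTG, which reads the same on both strands and is bound by Myc with Max, stood in the windows of 7 of the 42 genes (16.7%), against 11.9% of 9056 tested genes with a window. By window, the share was 13.7% of 51 for these genes, 10.0% of 11602 for tested genes and 7.15% of all 32851. CCAAT, read on both strands, stood in 35.7% of the genes against 43.7% of the tested ones, and GGGCGG, likewise read on both strands, in 73.8% against 69.1%. Such matches describe letters in a window and not binding. The 7 E-boxes are shown with up to 20 bases on either side, as far as the window reaches, with the motif in capitals, because Myc RNA moved in the comparisons below. Their first bases lay between 60 bases before and 40 bases after an annotated start.
Grwd1 (chr7:45830740-45830775, minus strand): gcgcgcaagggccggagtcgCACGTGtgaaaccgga
Mybbp1a (chr11:72441347-72441376, plus strand): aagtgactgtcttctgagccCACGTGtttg
Nop2 (chr6:125131803-125131848, plus strand): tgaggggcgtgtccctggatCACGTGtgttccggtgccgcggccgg
Pes1 (chr11:3963957-3964002, plus strand): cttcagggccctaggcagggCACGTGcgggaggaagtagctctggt
Tsr1 (chr11:74898084-74898129, plus strand): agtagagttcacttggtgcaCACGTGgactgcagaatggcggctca
Utp20 (chr10:88826765-88826797, minus strand): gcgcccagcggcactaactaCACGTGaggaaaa
Wdr43 (chr17:71616212-71616257, plus strand): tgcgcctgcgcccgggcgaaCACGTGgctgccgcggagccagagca

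Polr1a and Polr1b, which encode the pair of large subunits that form the active centre of RNA polymerase I, went opposite ways when Tconvs were activated. Their promoter windows are shown in full, with a CCAAT box in capitals for Polr1a and a GGGCGG box in capitals for Polr1b. The part of these boxes in the responses was not tested.
Polr1a (chr6:71908803-71909102, plus strand): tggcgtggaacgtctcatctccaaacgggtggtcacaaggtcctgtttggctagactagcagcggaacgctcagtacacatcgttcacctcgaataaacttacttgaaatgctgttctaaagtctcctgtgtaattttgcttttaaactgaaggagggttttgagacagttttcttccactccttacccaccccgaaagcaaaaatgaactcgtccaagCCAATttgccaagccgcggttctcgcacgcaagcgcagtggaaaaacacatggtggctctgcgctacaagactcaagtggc
Polr1b (chr2:129100746-129101045, plus strand): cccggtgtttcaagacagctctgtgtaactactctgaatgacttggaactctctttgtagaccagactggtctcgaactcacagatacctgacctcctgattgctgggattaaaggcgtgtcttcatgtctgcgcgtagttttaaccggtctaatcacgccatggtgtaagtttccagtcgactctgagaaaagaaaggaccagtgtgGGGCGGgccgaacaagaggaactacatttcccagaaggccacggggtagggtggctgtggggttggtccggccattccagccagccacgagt

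Activation of Tconvs raised most of these genes. Of the 47, 32 rose, 3 fell and 12 passed no threshold, and the median log2 fold change was 0.74. Of all 11495 genes tested, 50.2% were called, 24.5% rose and 25.7% fell, and the median was -0.04. The 3 libraries of each group did not overlap for 45 of the 47 genes, 41 of them higher after activation, where 35.4% of all genes tested lay wholly above and 38.5% wholly below. The genes also took a larger share of the reads, 0.756% ± 0.00231 in activated against 0.461% ± 0.00634 in resting Tconvs (SD, n = 3).

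By role, all 4 nucleolar scaffold genes, all 3 box C/D and all 3 box H/ACA genes rose. Npm1 (nucleophosmin, a chaperone of the granular nucleolus) was at 13312, 12929.6 and 13872 normalized counts in the resting and 26274, 28681 and 27730.4 in the activated libraries (log2 fold change 1.04, SE 0.11, limma adjusted p = 8.39e-07). Ncl (nucleolin) was at 6493, 6604 and 6377 and then 11028, 11508 and 11443 (log2 fold change 0.80, SE 0.076, limma adjusted p = 3.35e-07). For both genes, every activated library lay well above every resting one. Among the snoRNP genes, Fbl, the methyltransferase of box C/D particles, went from 152, 186 and 168 to 321, 389.8 and 328 (log2 fold change 1.03, SE 0.15, limma adjusted p = 2e-05). Dkc1, the pseudouridine synthase of box H/ACA particles, went from 1190.0, 1094 and 1254 to 2968, 2807 and 3089 (log2 fold change 1.33, SE 0.13, limma adjusted p = 6.22e-07), again without overlap. Gar1, a small partner of Dkc1, had the second largest rise of the 47, from 21.6, 23.4 and 18.4 to 70.0, 84.5 and 58.7 (log2 fold change 1.69, SE 0.26, limma adjusted p = 4.65e-05). Gar1 was a low gene, but its resting and activated libraries did not overlap.

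Of the RNA polymerase I genes, 4 rose and Polr1a fell. Polr1b was at 272, 274 and 262 normalized counts at rest and 567, 550.3 and 539 after activation (log2 fold change 1.03, SE 0.091, limma adjusted p = 1.51e-07). Polr1a was at 886, 982 and 866 and 536, 511 and 549.8 (log2 fold change -0.77, SE 0.11, limma adjusted p = 1.57e-05). Every activated library was higher than the resting ones for Polr1b and lower for Polr1a. Ubtf, the factor that binds ribosomal DNA and recruits the polymerase, was at 950.3, 1128 and 1069 and 1715, 1699 and 1628 (log2 fold change 0.68, SE 0.21, limma adjusted p = 0.0104), and all activated libraries were above the resting ones.

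Of the 13 small subunit genes 8 rose and 1 fell, and of the 19 large subunit genes 10 rose and 1 fell. Rrp1b, a nucleolar protein of large subunit processing, had the largest rise of all 47, from 106, 112 and 121 to 485, 427 and 448 normalized counts (log2 fold change 2.00, SE 0.088, limma adjusted p = 8.85e-11). Noc4l, a small subunit factor, rose from 326, 378 and 384 to 1007, 1120.4 and 1094 (log2 fold change 1.56, SE 0.095, limma adjusted p = 2.79e-09). Both went up in all 3 libraries with no overlap between the groups. Nob1, the nuclease that makes the mature end of the small subunit RNA, rose from 609, 715 and 714 to 1027, 1005 and 1086 (log2 fold change 0.62, SE 0.093, limma adjusted p = 3.96e-05). Gnl3 (nucleostemin, a nucleolar GTPase) rose from 346, 366 and 389.7 to 874, 803 and 937 (log2 fold change 1.24, SE 0.089, limma adjusted p = 1.58e-08). Their resting and activated libraries stood apart as well.

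Wdr12 and Pes1 belong with Bop1 to a single complex that matures the large subunit RNA, and they did not move together. Wdr12 was at 2532, 2421 and 2518 normalized counts in resting and 965, 796 and 934 in activated Tconvs (log2 fold change -1.47, SE 0.12, limma adjusted p = 5.23e-08), the largest fall of the 47. Pes1 was at 1093, 1163 and 1189 and 1628, 1552 and 1639 (log2 fold change 0.48, SE 0.15, limma adjusted p = 0.0103), and the log2 fold change of Bop1 was 0.37 (SE 0.10), both short of the threshold of 0.5. Pes1 and Bop1 were nonetheless above their resting values in every activated library. The third gene that fell was Ddx10, a helicase of the small subunit, from 1027, 1040.2 and 1061 to 651, 634 and 682 (log2 fold change -0.67, SE 0.14, limma adjusted p = 0.000689). Nop14, Ddx18 and Bms1 had log2 fold changes of 0.13, -0.0045 and -0.079.

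On activation of tTregs, 6 of these genes passed the test. Of the 47 genes, 2 rose and 4 fell, while 11.9% of all genes tested rose and 10% fell, and the median log2 fold change of the 47 was -0.16 against 0 for all genes. The libraries of 14 genes lay wholly below and those of 4 wholly above the resting ones, against 18.8% and 19% of all genes tested. Nhp2, a core protein of box H/ACA particles, went from 472, 454 and 426 normalized counts at rest to 685, 647 and 638 after activation (log2 fold change 0.54, SE 0.076, limma adjusted p = 0.000112), with no overlap. Ubtf was at 692, 1317 and 1505 and 1977, 1446 and 1922 (log2 fold change 0.67, SE 0.21, limma adjusted p = 0.0232). Its groups overlapped, the first resting library being far below the other two, and without that library the log2 fold change was 0.33 with a limma adjusted p of 0.0578. Ubtf was also not called without the first or the third activated library (limma adjusted p = 0.0799 and 0.0743). The share of reads taken by the 47 genes was 0.453% ± 0.0272 in activated and 0.499% ± 0.0273 in resting tTregs (SD, n = 3). Their summed normalized counts differed less, at 42997 ± 1990 in activated and 43562 ± 2742 in resting tTregs.

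The 4 genes that fell in tTregs, a share near that of all genes tested, were Polr1a, Ddx10, Gnl3 and Polr1b. For each of them all activated libraries were below all resting ones. Polr1a went from 702, 693 and 541 to 358, 379 and 431 normalized counts (log2 fold change -0.72, SE 0.11, limma adjusted p = 0.000162). Gnl3 went from 441, 410.0 and 374 to 257, 267 and 267 (log2 fold change -0.63, SE 0.089, limma adjusted p = 0.000121). Polr1b went from 421, 348 and 377 to 257, 276 and 269 (log2 fold change -0.51, SE 0.091, limma adjusted p = 0.000715). Polr1a and Ddx10 thus fell in both cell types, while Polr1b and Gnl3 fell in tTregs and rose in Tconvs. Ddx10 was at 1049, 895 and 794 and 497, 775 and 521 (log2 fold change -0.63, SE 0.14, limma adjusted p = 0.00317), and the second activated library lay above its partners. Without replicate 1 of every group its log2 fold change was -0.41 and the call was lost. The count of 6 genes moved with single libraries: without the second activated library it was 12 (2 higher and 10 lower), and without the third resting library it was 10 (2 higher and 8 lower).

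The difference between the responses was tested as an interaction. The response was more positive in Tconvs for 32 of the 47 genes and more negative for 1, where 34.7% of all genes tested were called, 17% and 17.7% in these directions. The largest differences in log2 fold change, Tconvs minus tTregs, were those of Rrp1b (2.39, SE 0.12), Gnl3 (1.87, SE 0.13) and Nop16, a factor of the large subunit (1.81, SE 0.25), with limma adjusted p values of 2.59e-09, 3.93e-08 and 4.86e-05. Wdr12 was the exception, with a difference of -1.31 (SE 0.17, limma adjusted p = 2.24e-05). Of the 3 genes that fell in Tconvs, Polr1a and Ddx10 had differences of -0.051 (95% interval -0.37 to 0.27) and -0.039 (-0.46 to 0.38), neither past the test. The same held for Ubtf at 0.016 (-0.61 to 0.65). All 6 snoRNP genes responded more strongly in Tconvs.

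**Figure D2:**
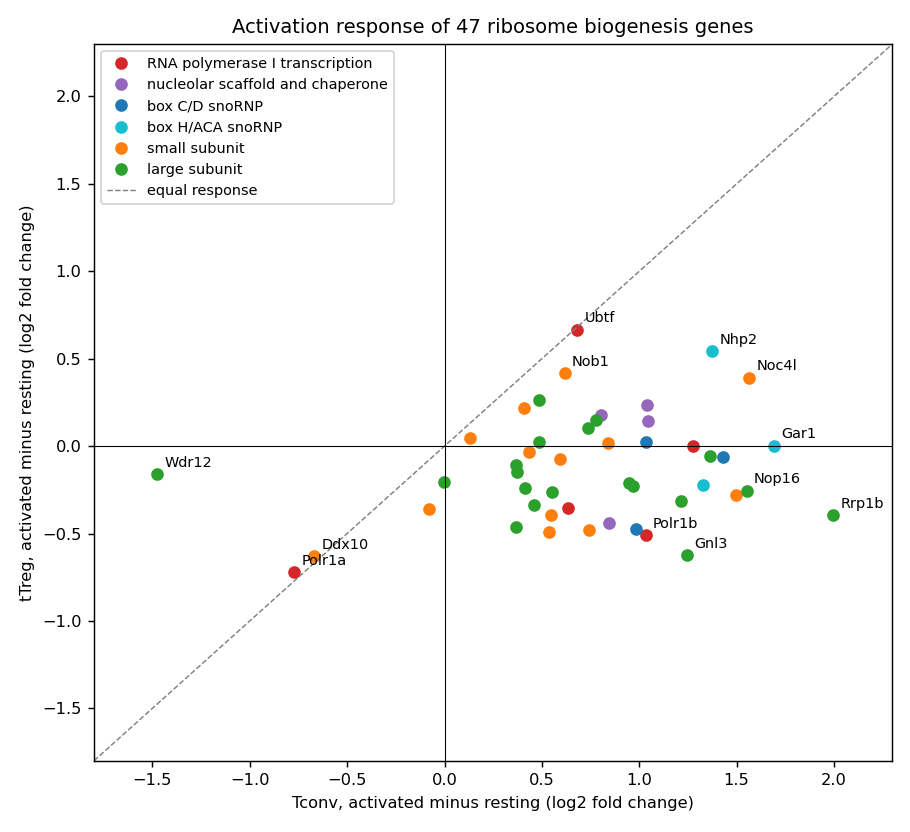
Each point is 1 of the 47 genes, coloured by role, with the log2 fold change on activation in Tconvs on the x axis and in tTregs on the y axis. The dashed line marks an equal response. Most points lie to the right of 0 and below the line, Ubtf, Polr1a and Ddx10 lie near it, and Wdr12 alone lies far to the left, at -1.47.

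At rest, tTregs differed from Tconvs in 7 of the 47 genes that were higher and 3 that were lower, against 20.5% and 18.2% of all genes tested. Without replicate 1 of every group, 3 were higher and 5 lower. Rrp1b stood at 350.1, 343 and 346 normalized counts in tTregs and 106, 112 and 121 in Tconvs (log2 fold change 1.61, SE 0.088, limma adjusted p = 1.13e-09). Heatr1, a small subunit factor that also serves RNA polymerase I, stood at 681, 675 and 607 and 365, 352 and 349 (log2 fold change 0.88, SE 0.11, limma adjusted p = 6.55e-06). For both, each tTreg library was above each Tconv library. Noc3l was at 194, 226 and 131 and 110.0, 97.5 and 108 (log2 fold change 0.76, SE 0.22, limma adjusted p = 0.0104), but its tTreg libraries were widely spread and the call was lost without replicate 1 or without replicate 2 (limma adjusted p = 0.0749 and 0.133).

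The 3 genes lower in resting tTregs were Wdr12, Npm1 and Polr1a. Wdr12 was at 327, 297 and 299.6 normalized counts in tTregs, far below the Tconv libraries given above (log2 fold change -3.01, SE 0.12, limma adjusted p = 2.64e-11). Npm1 was at 8769, 7791 and 7549 (log2 fold change -0.74, SE 0.11, limma adjusted p = 4.42e-05), and Polr1a, at the values given above, was lower with a log2 fold change of -0.51 (SE 0.11, limma adjusted p = 0.00104). None of the 3 overlapped with Tconvs. With quantile normalization the log2 fold changes of Npm1 and Polr1a shrank to -0.31 and -0.49 and were no longer called, and Polr1a was also not called without replicate 3 (-0.42) or by DESeq2 (-0.50). Of the 8 groups, resting Tconvs had the highest mean of Wdr12.

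After activation, tTregs had lower levels than Tconvs for 31 of the 47 genes and higher levels for 0, where 48.2% of all genes tested were called, 22.6% lower and 25.6% higher. The count of 0 was the same with edgeR and DESeq2 on the recovered reads, and none of the 3 genes with a positive log2 fold change had an unadjusted limma p below 0.05. Rrs1, an early large subunit factor, was at 22.9, 18.9 and 32.7 normalized counts in tTregs and 98.8, 141 and 74.3 in Tconvs (log2 fold change -2.02, SE 0.37, limma adjusted p = 0.000269). Dkc1 was at 708, 966 and 874 against 2968, 2807 and 3089 (log2 fold change -1.81, SE 0.13, limma adjusted p = 3.5e-08), and Gnl3 at 257, 267 and 267 against 874, 803 and 937 (log2 fold change -1.72, SE 0.089, limma adjusted p = 8.2e-10). The groups stood apart for these 3 genes and for 38 of the 47 in all, each with tTregs below, where 30.4% of all genes tested were so placed. Ubtf was the gene with the most positive log2 fold change, 0.07 (95% interval -0.38 to 0.52). The log2 fold change of Npm1 was -1.64 (SE 0.11, limma adjusted p = 1.07e-08).

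Resting iTregs, which had been stimulated during their induction, were compared with resting Tconvs. Those Tconvs came from older mice and are not described as sorted for naive cells, from which the iTregs were induced, so that age, the sort and induction cannot be told apart here. The same limit holds for the comparisons of iTregs or their response with activated Tconvs below. In iTregs, 27 of the 47 genes were higher and 3 lower than in resting Tconvs, against 32.8% and 30.8% of all genes tested (63.6% called in all), and the median log2 fold change was 0.73. Rrp1b was at 671, 659 and 629 normalized counts in iTregs (log2 fold change 2.52, SE 0.088, limma adjusted p = 2.32e-12), Gar1 at 106, 95.8 and 73.6 (log2 fold change 2.06, SE 0.26, limma adjusted p = 4.03e-06) and Mrto4, an assembly factor of the large subunit stalk, at 946, 865 and 711, against 197, 243 and 192 in resting Tconvs (log2 fold change 1.99, SE 0.15, limma adjusted p = 9.58e-09). In each case, all iTreg libraries exceeded all Tconv libraries. The 3 lower genes were again Wdr12 (-1.83, SE 0.12, limma adjusted p = 2.05e-09), Polr1a (-1.14, SE 0.11, limma adjusted p = 1.41e-07) and Ddx10 (-0.58, SE 0.14, limma adjusted p = 0.00152). Their iTreg libraries lay between 648 and 797, 401 and 429, and 669.9 and 727 normalized counts, below every resting Tconv library. This comparison and that of activated with resting Tconvs share the resting Tconv libraries.

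Set directly beside activated Tconvs, resting iTregs were higher in 5 and lower in 5 of the 47 genes, below the background of 22.9% and 18.7% of all genes tested. That held for the calls, which need a log2 fold change past 0.5. By overlap alone, the iTreg libraries of 12 genes lay wholly above and those of 20 wholly below, against 35.7% and 32.1% of all genes tested. Npm1 was lower in iTregs, at 14983, 14474 and 13600 normalized counts against 26274, 28681 and 27730.4 (log2 fold change -0.94, SE 0.11, limma adjusted p = 3.39e-06). Mrto4 was higher (log2 fold change 0.63, SE 0.15, limma adjusted p = 0.00208), and so were Rrp12, a small subunit export factor (log2 fold change 0.60), Rrp1b (0.53), Bop1 (0.52) and Grwd1 (0.50). Mrto4 and Npm1 had no library out of order between the groups. Besides Npm1, the lower genes were Noc3l (-0.72), Dkc1 (-0.60), Tsr1 (-0.59) and Polr1b (-0.51). Several of these calls were not stable: without replicate 2 of every group the count was 6 in place of 10, with 3 higher and 3 lower, and the calls of Rrp1b, Noc3l and Polr1b were among those lost. With quantile normalization 2 were higher and 5 lower.

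Against resting tTregs, resting iTregs had 29 of the 47 genes higher and 3 lower, with 32.3% and 31.1% for all genes tested (63.4% called in all). The tTregs too came from older mice, so that age, origin and induction cannot be told apart in this comparison. Nhp2 was at 1898, 1828 and 1757 normalized counts in iTregs and 472, 454 and 426 in tTregs (log2 fold change 2.02, SE 0.076, limma adjusted p = 8.48e-12). Rrs1 was at 155, 219.9 and 74.4 and 30.8, 22.1 and 34.2 (log2 fold change 2.22, SE 0.37, limma adjusted p = 7.22e-05), and Mrto4 at 711 to 946 and 212 to 271 (log2 fold change 1.77, SE 0.15, limma adjusted p = 4.04e-08). None of the 3 overlapped, although the third iTreg library was much lower than the others for Rrs1. The lower genes were Polr1a (-0.63), Heatr1 (-0.60) and Noc3l (-0.53). Heatr1 was no longer called without replicate 1 (-0.44), and Noc3l was not called under 5 of the 14 alternatives, with a limma adjusted p of 0.447 without replicate 2. Wdr12 was 2.27-fold higher in iTregs than in tTregs (limma adjusted p = 3.39e-07), so that its order at rest was Tconvs, iTregs, tTregs, with no library out of order. With quantile normalization the median log2 fold change of all genes tested moved by -0.14 for iTregs against resting Tconvs, -0.13 against activated Tconvs and -0.12 against tTregs, and 23 genes were higher and 4 lower in the comparison with tTregs.

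**Figure D3:**
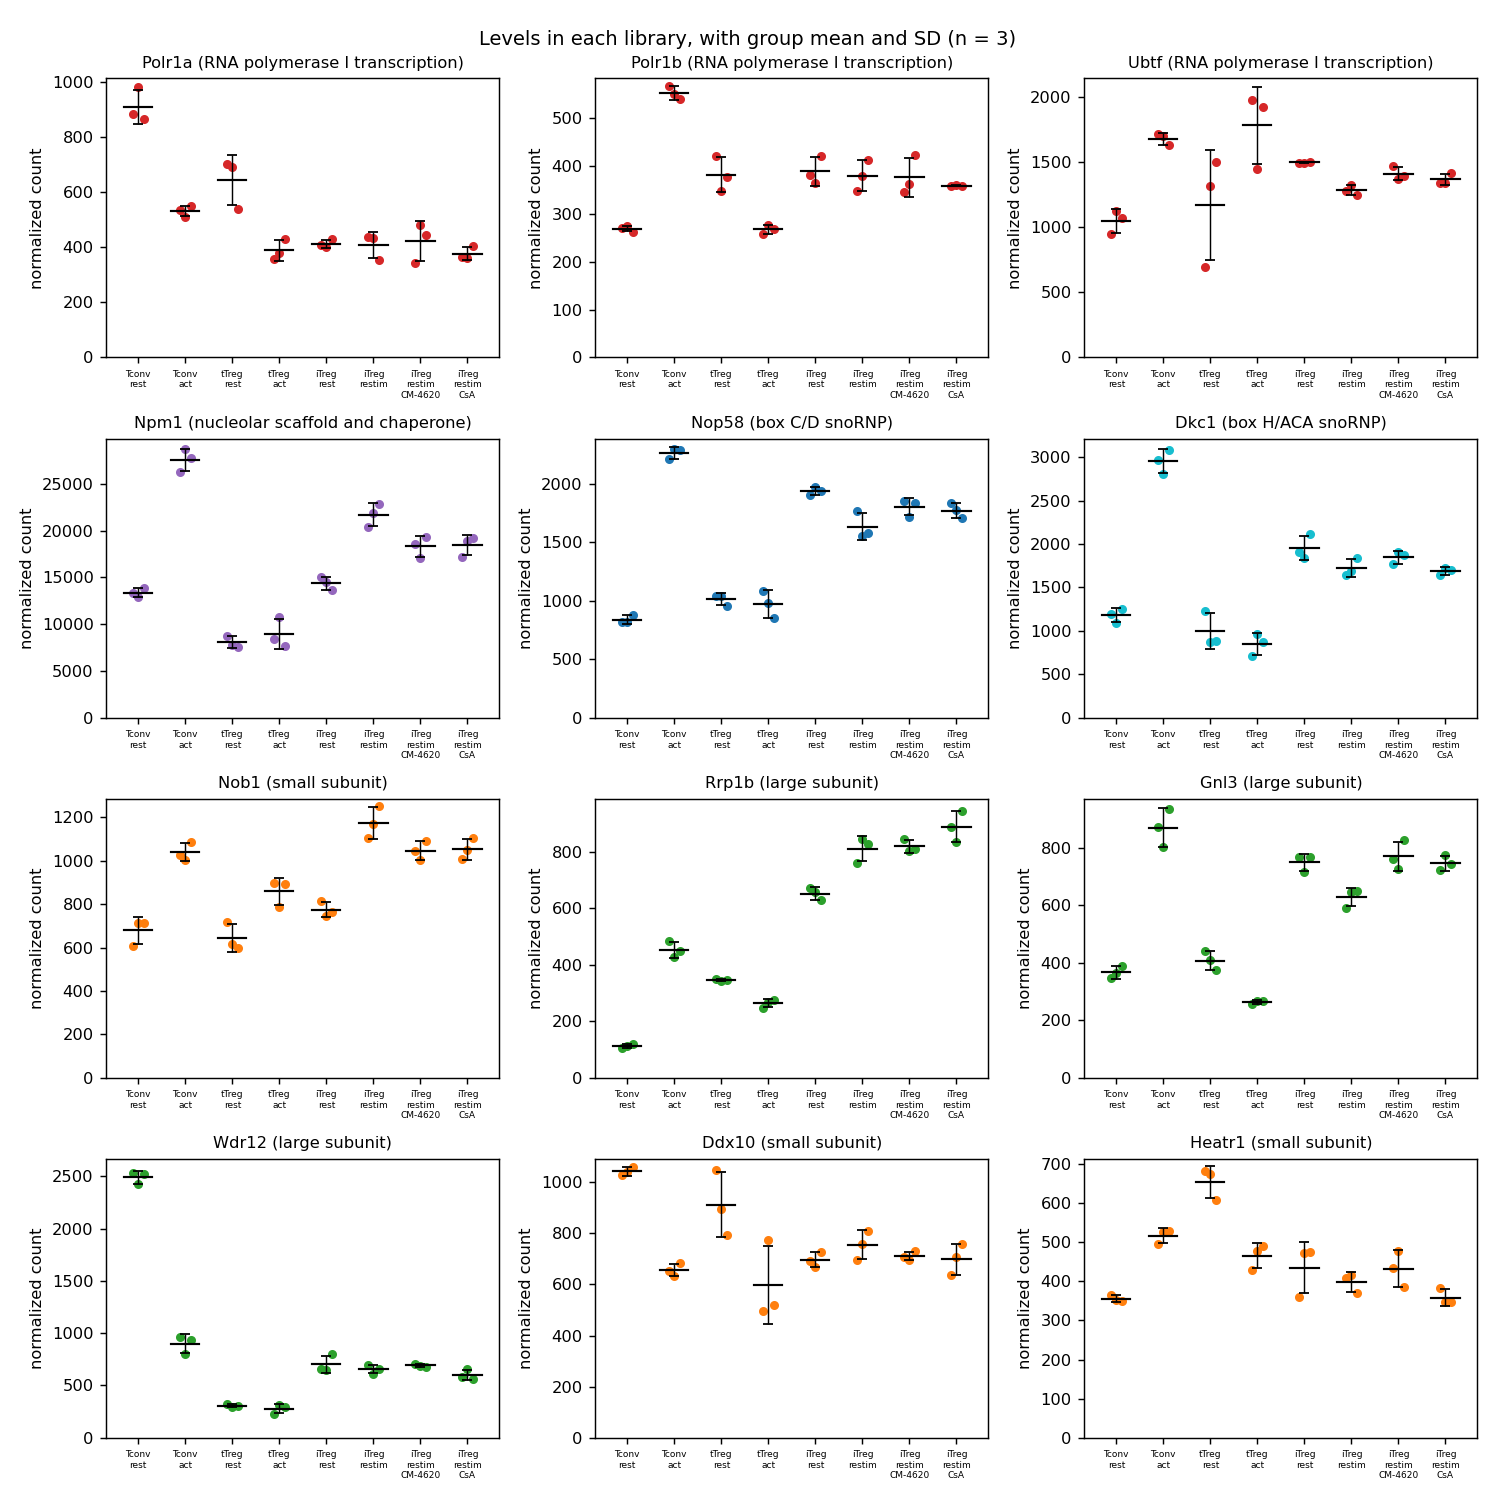
Normalized counts of 12 of the genes in every library (points) with the mean and SD of each group (bars, n = 3), on linear axes from 0. Npm1, Dkc1, Gnl3 and Polr1b peak in activated Tconvs, Rrp1b is lowest in resting Tconvs and highest in the iTreg groups, and Wdr12, Polr1a and Ddx10 are highest in resting Tconvs. The first resting tTreg library of Ubtf lies apart from its group.

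Restimulation of iTregs changed 2 of the 47 genes, both upward, against 6.7% of all genes tested that rose and 6.13% that fell, and the median log2 fold change was -0.0049. Nob1 was at 815, 747 and 763 normalized counts in resting and 1106, 1171 and 1253 in restimulated iTregs (log2 fold change 0.60, SE 0.066, limma adjusted p = 8.15e-06). Npm1 was at 14983, 14474 and 13600 and 20378, 21922 and 22828 (log2 fold change 0.60, SE 0.065, limma adjusted p = 7.53e-06). Every restimulated library of both genes was above the resting ones. With quantile normalization Npm1 had a log2 fold change of 0.47 and Nob1 was the 1 gene called. The 45 other genes had log2 fold changes between -0.47 (Rrs1, 95% interval -1.24 to 0.29) and 0.36 (Rcl1, 0.19 to 0.53). For 39 of the 47 genes, the 95% interval lay within 0.5 of 0 on the log2 scale. Gnl3, which rose in Tconvs, had a log2 fold change of -0.25 here (-0.40 to -0.11).

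The responses of Tconvs to activation and of iTregs to restimulation were compared as an interaction over all 24 libraries. 31 of the 47 genes responded more positively in Tconvs and 3 more negatively, where 22.6% and 21.7% of 11725 genes tested did so. The largest positive differences in log2 fold change were those of Gar1 (1.71, SE 0.37), Rrp1b (1.68, SE 0.10) and Nop58 (1.68, SE 0.11), a core protein of box C/D particles, with limma adjusted p values of 0.000564, 2.23e-11 and 2.35e-11. The negative ones were those of Wdr12 (-1.39), Ddx10 (-0.79) and Polr1a (-0.75), with limma adjusted p values of 8.43e-08, 0.000695 and 0.000829. That of Polr1a missed the threshold without replicate 2 (limma adjusted p = 0.0512). For Nob1 the difference was 0.015 (-0.23 to 0.26) and for Npm1 0.45 (0.17 to 0.73). Restimulated iTregs differed from activated Tconvs in 3 higher and 3 lower genes, against 24.4% and 20% of all genes tested. The higher ones were Rrp1b (0.84), Rrp12 (0.80) and Mrto4 (0.61), and the lower ones Dkc1 (-0.78), Tsr1 (-0.58) and Polr1b (-0.54), all as log2 fold changes. By overlap alone, the iTreg libraries of 15 genes lay wholly above and those of 19 wholly below, against 37% and 33.3% of all genes tested. With quantile normalization, which moved the median of all genes by -0.12 there, 3 were higher and 6 lower.

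Neither inhibitor changed a gene of the set past the thresholds. Against restimulated iTregs, limma called 0 of the 47 genes with CM-4620 and 0 with CsA, where it called 3.3% and 2.92% of all 11105 genes tested (1.5% higher and 1.79% lower for CM-4620, 1.57% and 1.35% for CsA), and edgeR and DESeq2 on the recovered reads likewise called 0. At shares this small, 0 of 47 is near the share of all genes. At an unadjusted p below 0.05 the counts for CM-4620 were 10 by limma, 10 by edgeR and 8 by DESeq2, and for CsA 9 by limma, 10 by edgeR and 9 by DESeq2. No share of all genes at that limit stands beside these counts, so that they cannot be read as an effect on the set. The log2 fold changes of the 47 genes lay between -0.30 and 0.29 for CM-4620 and between -0.24 and 0.27 for CsA. The 95% interval lay within 0.5 of 0 for 44 genes with CM-4620 and 43 with CsA. The widest interval belonged to Rrs1, a low and variable gene, with -0.85 to 0.68 and -0.53 to 1.00.

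For the pair of genes that had risen, levels under the inhibitors lay between resting and restimulated values. Npm1 was at 18570, 17078 and 19325 normalized counts with CM-4620 and 17211, 18879.5 and 19228 with CsA. Its log2 fold changes against restimulated iTregs were -0.24 (-0.38 to -0.11, limma adjusted p = 0.0308) and -0.24 (-0.37 to -0.10, limma adjusted p = 0.0376), smaller than the 0.5 set as the limit. All treated libraries were below the restimulated and above the resting ones. Nob1 was at 1044, 1003 and 1091 with CM-4620 and 1008, 1048 and 1105 with CsA, with log2 fold changes of -0.17 (-0.31 to -0.028) and -0.16 (-0.30 to -0.017) against restimulated iTregs, and its treated libraries too lay below the restimulated and above the resting ones. Of the log2 rise on restimulation, 59.0% was left for Npm1 with CM-4620 and 60.5% with CsA, and 71.9% and 73.6% for Nob1.

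Gnl3 was 592, 647 and 650.3 without an inhibitor, 762, 727 and 827 under CM-4620 and 723, 775 and 745 under CsA, in normalized counts, so that its treated libraries were all above the restimulated ones. Its log2 fold changes were 0.29 (limma adjusted p = 0.0157) and 0.25 (limma adjusted p = 0.0379), again under 0.5. Between the inhibitors, limma called 0 of the 47 genes and 0.36% of all genes tested, and edgeR and DESeq2 called 0 as well. Here too, 0 of 47 is near the share of all genes. The counts at an unadjusted p below 0.05 were 2 by limma, 2 by edgeR and 2 by DESeq2. The differences, CM-4620 minus CsA, ran from -0.33 (Rrs1, 95% interval -1.09 to 0.44) to 0.26 (Heatr1, 0.029 to 0.50), and for 43 genes the interval lay within 0.5 of 0. Against resting iTregs, limma, edgeR and DESeq2 also called 0 genes with either inhibitor, where limma called 7.1% of all genes tested with CM-4620 (3.97% higher and 3.13% lower) and 9.43% under CsA (5.19% and 4.24%). At an unadjusted p below 0.05 the counts were 6 by limma, 8 by edgeR and 6 by DESeq2 with CM-4620, and 14 by limma, 14 by edgeR and 13 by DESeq2 with CsA. The counts at an unadjusted p again have no share of all genes to be set against.

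**Figure D4:**
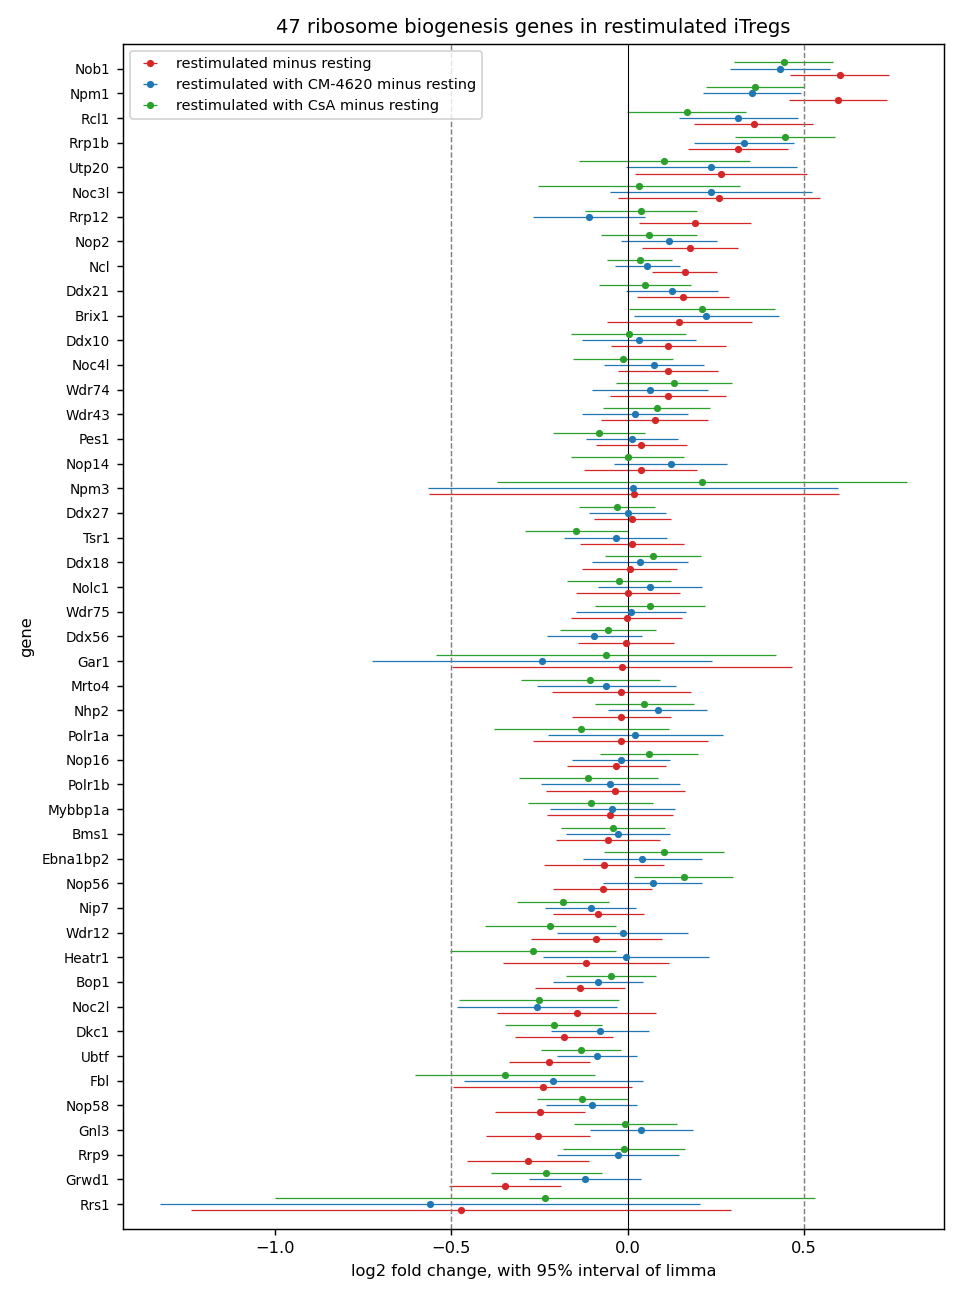
Log2 fold changes against resting iTregs for the 47 genes, ordered by the change on restimulation alone (red) and shown also for restimulation with CM-4620 (blue) and with CsA (green). Bars are 95% intervals of limma and dashed lines mark the threshold of 0.5. Nob1 and Npm1 lie past the line on restimulation alone, and the inhibitor points of these genes lie between 0 and the red ones.

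Across the 8 groups, the highest mean of a gene fell most often in activated Tconvs, for 16 of the 47. It fell in resting iTregs for 9, in restimulated iTregs for 8, under CsA for 5 and under CM-4620 for 3, so that the iTreg groups split their count. Over the 5 groups of Tconvs, tTregs and resting iTregs, it fell in activated Tconvs for 21 and in resting iTregs for 19. Across the 8 groups, the lowest mean fell in resting Tconvs for 20 and in activated tTregs for 19. The ratio of the highest to the lowest group mean ranged from 1.14 for Nop14, a small subunit scaffold, to 8.98 for Wdr12, with a median of 2.15. Per kilobase of exon, Npm1 was the most abundant of the 47 in every group, with group means from 3016 to 10342 normalized counts per kilobase, while the median over the 47 genes ranged from 160.1 to 269. Npm1 alone made up 18.4% to 33.1% of the reads of the set by group. All 47 genes together took 0.603% ± 0.00533 of the reads in resting and 0.668% ± 0.0181 after restimulation, 0.642% ± 0.0145 under CM-4620 and 0.634% ± 0.0134 under CsA (SD, n = 3). Npm1 went from 0.132% ± 0.00466 at rest to 0.197% ± 0.0102 of the reads after restimulation, while the other 46 genes took 0.471% ± 0.00557 and 0.471% ± 0.00788, so that the gain of the set lay in Npm1.

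The group means of the genes that stand for each role show these orders in normalized counts (SD, n = 3). Those of Polr1b were 269 ± 6.04 in resting and 552 ± 14.3 in activated Tconvs, 382 ± 36.8 in resting and 267 ± 9.60 in activated tTregs, 389 ± 29.7 in resting and 379.8 ± 32.9 in restimulated iTregs, and 377 ± 40.5 under CM-4620 and 359 ± 1.24 under CsA. Those of Ubtf were 1049 ± 90.7 in resting and 1681 ± 46.3 in activated Tconvs, 1171 ± 425 in resting and 1781 ± 292 in activated tTregs, 1498 ± 5.51 in resting and 1284 ± 40.5 in restimulated iTregs, and 1411 ± 49.6 under CM-4620 and 1367 ± 45.0 under CsA. Polr1b had a clear peak in activated Tconvs, and resting tTregs overlapped with each of the 4 iTreg groups, while every library of resting iTregs was above those under CsA. Ncl had means of 6491 ± 114 in resting and 11326 ± 260.4 in activated Tconvs, 6624 ± 729 in resting and 7457 ± 204 in activated tTregs, 8298 ± 183 in resting and 9285 ± 147 in restimulated iTregs, and 8626 ± 72.6 under CM-4620 and 8494 ± 51.3 under CsA. Npm1 had means of 13371 ± 474 in resting and 27562 ± 1212 in activated Tconvs, 8036 ± 646 in resting and 8941 ± 1621 in activated tTregs, 14352 ± 699.5 in resting and 21709 ± 1239 in restimulated iTregs, and 18324 ± 1144 under CM-4620 and 18439 ± 1078 under CsA. Both were highest in activated Tconvs and next in restimulated iTregs, and for Npm1 resting tTregs and activated tTregs, the lowest groups, overlapped.

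Fbl stood at 169 ± 16.8 in resting and 346 ± 38.0 in activated Tconvs, 176 ± 14.4 in resting and 179 ± 15.2 in activated tTregs, 334 ± 68.7 in resting and 279 ± 20.9 in restimulated iTregs, and 285 ± 15.7 under CM-4620 and 258 ± 6.42 under CsA. Dkc1 stood at 1179 ± 80.8 in resting and 2955 ± 142 in activated Tconvs, 995 ± 207 in resting and 849 ± 131 in activated tTregs, 1954 ± 143 in resting and 1724 ± 104 in restimulated iTregs, and 1848 ± 74.7 under CM-4620 and 1687 ± 45.6 under CsA. For both snoRNP enzymes, Tconv levels after activation and all iTreg levels were above those of resting Tconvs and of both tTreg groups. For Nob1 the means were 679 ± 60.8 in resting and 1039 ± 42.0 in activated Tconvs, 644 ± 63.2 in resting and 859 ± 61.5 in activated tTregs, 775 ± 35.5 in resting and 1177 ± 73.9 in restimulated iTregs, and 1046 ± 43.7 under CM-4620 and 1054 ± 48.9 under CsA. For Pes1 they were 1149 ± 49.6 in resting and 1606 ± 47.5 in activated Tconvs, 1034 ± 229 in resting and 1043 ± 185 in activated tTregs, 1513 ± 101 in resting and 1552 ± 20.1 in restimulated iTregs, and 1525 ± 78.5 under CM-4620 and 1428 ± 35.5 under CsA. Pes1 varied little among activated Tconvs and the iTreg groups, while Nob1 was highest in restimulated iTregs. Gnl3 was at 367 ± 22.1 in resting and 871 ± 66.9 in activated Tconvs, 408 ± 33.7 in resting and 264 ± 5.60 in activated tTregs, 751 ± 30.0 in resting and 629.7 ± 32.5 in restimulated iTregs, and 772 ± 50.5 under CM-4620 and 748 ± 26.2 under CsA, with its lowest libraries in activated tTregs.

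Other genes of the same pathway were counted from a list of 139, of which 138 were tested. The remaining gene, Exosc6 of the RNA exosome, was at 0 in all libraries. On activation of Tconvs, 56 rose and 5 fell, and on activation of tTregs 3 rose and 13 fell, with median log2 fold changes of 0.37 and -0.11. These are 40.6% and 3.62% in Tconvs, against 24.5% and 25.7% of all genes tested, and 2.17% and 9.42% in tTregs, against 11.9% and 10%. The share that fell in tTregs was thus near that of all genes. The response was more positive in Tconvs for 57 (41.3%, all genes 17%) and more negative for 2. All 11 other genes of snoRNPs and their assembly rose in Tconvs, as did 12 of the 21 tested genes of rRNA nucleases and the exosome, 17 of 46 of the small subunit, 13 of 46 of the large subunit and 3 of 14 of RNA polymerase I transcription. The shares of the large subunit and RNA polymerase I genes, 28.3% and 21.4%, were near that of all genes. Activated tTregs were lower than activated Tconvs in 58 of the 138 (42.0%, all genes 22.6%) and higher in 7. Resting iTregs were higher than resting Tconvs in 51 (37.0%, near the 32.8% of all genes) and lower in 14 (10.1%, all genes 30.8%). Restimulation raised 3 and lowered 2, or 2.17% and 1.45% against 6.7% and 6.13% of all genes.

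Genes of the ribosome itself were counted beside the assembly genes. Of the 77 cytosolic ribosomal protein genes, 20 rose and 2 fell on activation of Tconvs, while 34 rose and 0 fell on activation of tTregs. The 26.0% that rose in Tconvs was near the 24.5% of all genes, and the 44.2% in tTregs stood beside 11.9%. In the test of the difference in response, 12 of the 77 had the more positive response in tTregs and 1 in Tconvs. Of all genes tested, 17.7% and 17% were called in these directions, so that 12 of 77 was near the share of all genes. At rest, 66 of the 77 were lower in tTregs than in Tconvs and 0 higher (85.7% lower, all genes 18.2%), with a median log2 fold change of -0.82, against 0.15 for the 47. Resting iTregs were higher than resting Tconvs in 5 and lower in 16 (6.49% and 20.8%, all genes 32.8% and 30.8%), and they were lower than activated Tconvs in 30 (39.0%, all genes 18.7%). Ribosomal proteins took between 10.2% and 16.7% of the reads by group mean. Many of these short genes have processed pseudogenes, so that their counts are less certain.

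Mitochondrial ribosomal protein genes, 78 in all, had 51 members that rose and 0 that fell on activation of Tconvs, and 55 higher and 1 lower in resting iTregs than in resting Tconvs. On activation of tTregs 22 rose. The shares that rose or were higher, 65.4%, 70.5% and 28.2% in this order, stood beside 24.5%, 32.8% and 11.9% of all genes tested. Myc, known from other work as a regulator of this pathway, had a log2 fold change of 3.19 on activation of Tconvs (SE 0.15, limma adjusted p = 1.34e-10) and of 0.21 in tTregs (SE 0.15, limma adjusted p = 0.291). The part of Myc in the levels of the 47 genes was not tested. Resting tTregs were above resting Tconvs in Myc by 2.99 on the log2 scale (SE 0.15, limma adjusted p = 3.38e-10), and between activated tTregs and activated Tconvs the difference was 0.0072 (95% interval -0.31 to 0.32). Of the 7 genes with an E-box shown above, Mybbp1a, Nop2, Tsr1, Utp20 and Wdr43 rose on activation of Tconvs, with log2 fold changes of 1.28, 1.22, 1.50, 0.55 and 0.59, while Pes1 and Grwd1 did not pass the threshold (0.48 and 0.41). That is 5 of 7, beside 32 of all 47 genes. In tTregs their log2 fold changes ran from -0.40 to 0.021. Of 10 proliferation genes, 10 rose on activation of Tconvs and 9 on that of tTregs, 8 were lower and 1 higher in activated tTregs than in activated Tconvs, and all 10 were higher in resting iTregs than in resting Tconvs. Mcm5, a subunit of the replicative helicase, had means of 4929 normalized counts in activated Tconvs, 1521 in activated tTregs and 6912 in resting iTregs, and those of Mki67, the 1 gene higher in activated tTregs, were 93.5, 258 and 3849.9. The part of cell division in the levels of the 47 genes was not tested.

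**Figure D5:**
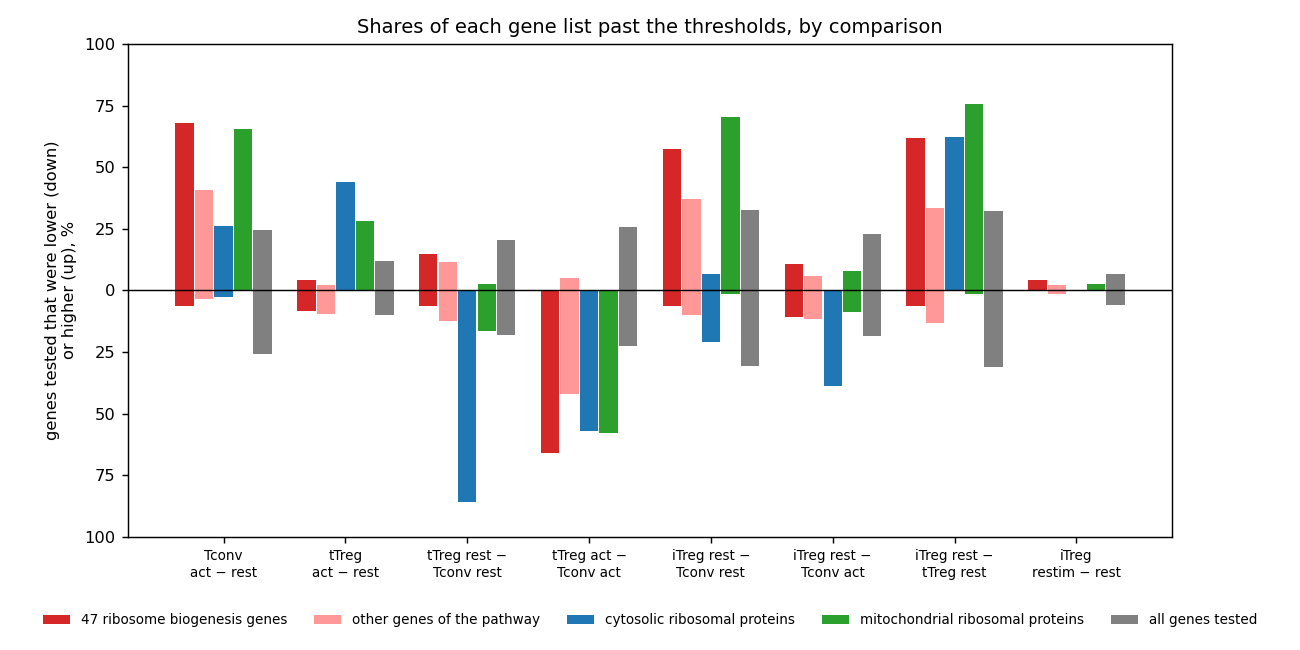
Share of each gene list, in percent of the genes tested, that was called higher (bars above 0) or lower (bars below 0) in 8 comparisons, by the thresholds used throughout. The 47 genes (red) and the mitochondrial ribosomal proteins (green) are mostly higher in activated Tconvs and resting iTregs, whereas cytosolic ribosomal proteins (blue) are mostly lower in resting tTregs than in resting Tconvs, and 34 of the 77 rose on activation of tTregs.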

How the data were processed

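RNA-seq was done on 24 libraries in 8 labelled groups of 3. Per the submitters' processing notes, cutadapt 1.18, STAR 2.5.3, RSEM 1.3.0 and DESeq2 1.26 were used on the way to the deposited table. The authors deposited normalized counts, a signal equal to gene counts divided by 1 size factor per library. Reads were recovered from the steps between values, and 100% of the values came out whole within 0.01 reads; libraries held 5256800 to 15685234 reads, and 3 reads, the floor for a value of 0, equal 2.12 to 5.45 normalized counts. Intervals and floors cover counting error or library spread only.

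A gene entered a fit where 3 or more of its libraries reached 10 normalized counts. Tests were made on log2(normalized count + 1) with limma 3.58.1 (R 4.3.3), with a trend in the variance and Benjamini-Hochberg adjustment over all genes. Tconvs, tTregs and resting iTregs (15 libraries) entered one fit, the 12 iTreg libraries another, and all 24 a separate fit for comparisons of restimulated iTregs or their response with Tconvs. The fits and code were tested on simulated data. Alternatives were pseudocounts, filters, scalings, sample sets, left-out replicates, and edgeR 4.0.16 and DESeq2 1.42.0 on the recovered reads; leaving out single libraries was chosen after seeing the data. Figures were drawn with matplotlib 3.10.9. Part of the marker list is not reported here.

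The 47 genes and the other lists were chosen with earlier results of these data known. Named genes are, per comparison, the 3 largest rises and the 3 largest falls among called genes whose libraries did not overlap, those called against the direction of most, and 9 genes in all groups. Bop1, Ubtf in tTregs, Wdr12 between iTregs and tTregs, Gnl3 under the inhibitors, Mki67, Mcm5, the genes at the ends of ranges and those with an E-box were named after their values were seen.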

Additional observations from a re-analysis of the deposited data

Results flagged for a closer look

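Several results were marked because the same contrast differed between cell types when the difference itself was tested with limma (Benjamini-Hochberg adjusted over all genes). The activation response differed between Tconvs and tTregs for 33 of the 47 genes, 32 of them more positive in Tconvs. As differences in log2 fold change, Tconvs minus tTregs, Rrp1b had 2.39, Gnl3 1.87 and Nop16 1.81, while Wdr12 had -1.31. In Gnl3 the responses had opposite signs, since it rose in Tconvs and fell in tTregs.

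The response to stimulation differed between Tconvs and iTregs for 34 of the 47 genes, 31 of them more positive in Tconvs. The differences in log2 fold change, Tconvs minus iTregs, were 1.71 for Gar1, 1.68 for Rrp1b and 1.68 for Nop58. They were -0.753 for Polr1a, -0.785 for Ddx10 and -1.39 for Wdr12. The iTregs had been stimulated during induction. They also came from younger mice and from cells sorted as naive, a sort not described for the Tconvs. The history of stimulation, the age, the sort and the cell type thus cannot be told apart in this comparison. No group was tested for a single library that stands apart, since each holds 3 libraries.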

How the results depend on the processing

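Each of the 16 counts of called genes was recomputed under 14 alternatives; 206 of the values stayed within 1.5 times the first count and 18 did not. Of the values for 58 named results under these alternatives, 785 kept their side of the thresholds, 25 lost the call and 0 changed sign.

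With the adjusted p alone and no limit on the fold change, the counts were 19 for activation of tTregs (6 with the limit), 26 for resting tTregs against resting Tconvs, 24 for resting iTregs and 25 for restimulated iTregs against activated Tconvs, 12 for restimulation, 3 for CM-4620 and 3 for CsA against restimulated iTregs, and 4 and 7 against resting iTregs. The 19 were 4 higher and 15 lower, the 26 were 18 and 8, the 24 were 12 and 12, and the 12 were 6 and 6. No share of all genes at this setting stands beside these counts. They show only how far the counts depend on the limit. Leaving out a replicate number from every group gave 3 to 12 for activation of tTregs, 6 to 11 for resting iTregs against activated Tconvs, and 0 to 1 for CM-4620 and 0 to 1 for CsA against resting iTregs. Leaving out single libraries, activation of tTregs gave 10 without the third resting and 12 without the second activated tTreg library, and 4 to 7 without any of the others. Without replicate 1, resting tTregs had 3 genes higher and 5 lower than resting Tconvs, in place of 7 and 3. Quantile normalization left 1 gene for restimulation. With edgeR, restimulated iTregs differed from activated Tconvs in 10 genes (3 higher and 7 lower).

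Samples with the same replicate number did not deviate together in every pair: the mean correlation of their deviations from the group means was -0.007 (-0.425 to 0.244) in the 15-library fit and 0.152 (-0.0389 to 0.302) in the 12-library fit, where 10 of 18 pairs were above 0.1. Pairs with different numbers had means of 0.00339 and -0.0754 in these fits, and 4 of 36 were above 0.1 in the 12-library fit. In the iTreg libraries, samples with the same number thus deviated together more than others did. The study methods name no pairing, so the main tests used none, and the number was used as a block only as an alternative. With the replicate number as a block, CM-4620 against resting iTregs gave 1 gene in place of 0, and the other counts stayed within 1.5 times. Low genes such as Rrs1 and Gar1 had the widest intervals. The causes were not tested.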
